A study of Mus musculus with 6 samples.

Results

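The T-box genes encode transcription factors that share a DNA-binding domain, the T-box. The members described here are the 7 rows, of 16854 genes in the deposited table, whose symbol is Tbx followed by a number: Tbx1, Tbx2, Tbx3, Tbx4, Tbx6, Tbx15 and Tbx18. They were selected by symbol, and the family was picked with results of the same comparison known, so the differences below are descriptions and the calls on members support nothing further. GENCODE M21 lists 13 genes with such names on GRCm38; Tbx5, Tbx10, Tbx19, Tbx20, Tbx21 and Tbx22 had no row and were not analysed here. RNA came from C2C12, a mouse myoblast line that forms multinucleated myotubes when serum is reduced, taken on day 3 in medium with 2% horse serum. The control group (3 libraries) has the genotype control and the treatment scramble in its labels. The knockdown group (3 libraries, genotype Adamtsl2 knockdown) received a short hairpin RNA against Adamtsl2, whose product is a glycoprotein that cells secrete into the matrix around them. The labels name a single hairpin treatment, so effects of the depletion and of the hairpin on other targets cannot be told apart. The labels do not say whether the 3 libraries of a group came from separate cultures, so the spread between them may be technical.

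T-box factors bind DNA through a core resembling AGGTGT and act as activators or repressors depending on the member and its partners. The Tbx2 subfamily (Tbx2, Tbx3, Tbx4, Tbx5) patterns limbs, heart and glands, with Tbx2 and Tbx3 acting mainly as repressors and Tbx4 needed for hindlimb outgrowth. The Tbx1 subfamily includes Tbx1, which is required for muscles of the head, and the close relatives Tbx15 and Tbx18, of which Tbx15 is known for skeletal elements of the limb and for glycolytic muscle fibres. Tbx6 acts in early mesoderm.

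Recovered reads totalled 37346439 to 50329438 per library. Adamtsl2 had a normalised read count of 1266 to 1325 in control libraries and 7.83 to 23.2 in knockdown libraries. Knockdown library 3 stood apart: its Pearson correlations across genes (log2 values) were 0.917 and 0.920 with the others of its group, against 0.993 to 0.996 for the other pairs within a group. Values without this library are therefore given beside the results it touches. C2C12 control cells carried the defining muscle RNAs, with Myog at 40656 to 43535 and embryonic myosin Myh3 at 336723 to 376444, while knockdown cells held Myog at 461 to 564 and Myh3 at 672 to 1212. In bulk RNA, fewer cells of a type and less RNA per cell cannot be told apart.

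Of the 7 members, 5 had less RNA in the knockdown, and Tbx15 held most of that difference. Tbx15 was 9.92-fold, Tbx2 12.5-fold and Tbx4 12.7-fold lower, Tbx3 was 3.64-fold lower and Tbx1 was 1.45-fold lower. Tbx18 and Tbx6 were not lower in the knockdown. With limma across all genes, 5 of 7 members were called lower at an adjusted p below 0.05, where 23.5% of the 16245 genes tested were called lower, and 4 were called with at least a 2-fold fall, against 16.5% of genes. None was called higher by limma, edgeR or DESeq2, where limma called 21.7% of genes higher at the adjusted threshold. At an unadjusted p below 0.05, 0 members were higher in each of these tools. The share of all genes at that looser threshold was not computed. Without knockdown library 3 the counts were also 5 lower and 0 higher, when 39.9% of genes were called lower and 38.6% higher. The knockdown values lay wholly below the control values for 5 members (32.7% of genes) and wholly above for 1, Tbx18 (30.0% of genes). All 7 passed the filter of a value of at least 10 in 3 libraries. Tbx2 and Tbx4 did so only with their control values. In the knockdown, Tbx2 reached 10 in library 2 alone (12.5) and Tbx4 in library 1 alone (13.3). For these 2 the filter favours genes that are lower in the knockdown, so their calls, counted above, are no support.

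**Figure D1:**
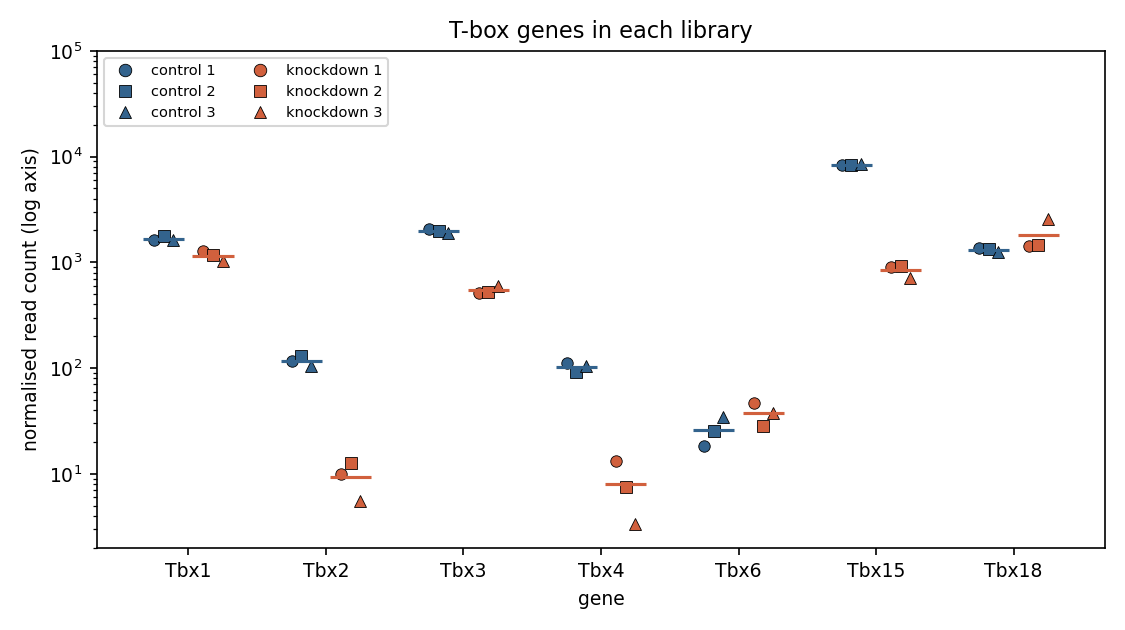
Normalised read count (log axis) of the 7 T-box genes in each of 3 control and 3 knockdown libraries; points are libraries and bars are group means. Tbx15 sits near 8382 in control and 845 in the knockdown, while the Tbx18 points differ little except for knockdown library 3 at 2581.

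Tbx15 (ENSMUSG00000027868, chromosome 3, 99240381 to 99354259, plus strand, GRCm38) was the most abundant member in control cells. It was measured at 8315, 8401 and 8430.2 in control libraries and at 903, 921 and 711 in knockdown libraries. All 3 knockdown libraries were low and close to each other. The mean went from 8382 ± 60.0 to 845 ± 116 (SD, n = 3), a 9.92-fold fall, with a log2 fold change of -3.32 ± 0.14 (SE). Among 16206 genes with a known exonic length, its level per kb stood at percentile 93.8 in control and 57.2 in the knockdown. Gm43120, an antisense gene of 66.5, 60.6 and 71.3 in control and 20.7, 25.9 and 248 in the knockdown, overlaps the locus by 6588 bp. It was not called (log2 -0.35 ± 0.94), and was called lower without knockdown library 3 (log2 -1.47 ± 0.21, limma adjusted p = 0.00012). That overlap is of whole gene spans with introns, and Gm43120 has 667 bp of exons. The overlap of exons was not computed, here or for the overlapping genes named below. The strand setting of the counting is not given in the sources used here, so reads from any shared exon cannot be told apart.

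Tbx18 (ENSMUSG00000032419, chromosome 9, 87702800 to 87731260, minus strand), a regulator of somite, ureter and heart pacemaker development, showed no such fall. Control values were 1369.6, 1340.1 and 1247, and knockdown values 1434, 1469 and 2581. The groups did not overlap, yet libraries 1 and 2 of the knockdown lay just above the highest control and library 3 far above. The log2 fold change was 0.42 ± 0.25 (limma adjusted p = 0.22) with all libraries and 0.14 ± 0.06 (limma adjusted p = 0.057) without knockdown library 3. D030062O11Rik, a gene model without experimental support on the other strand, overlaps Tbx18 by 1976 bp, with values of 67.6 to 76.0 in control and 103, 110.4 and 55.9 in the knockdown. Its log2 change was 0.25 ± 0.31 (limma adjusted p = 0.55), and 0.56 ± 0.16 without knockdown library 3 (limma adjusted p = 0.0090). The ratio of Tbx15 to Tbx18 per kb, which needs no scaling between libraries, was 7.64, 7.89 and 8.51 in control and 0.793, 0.789 and 0.347 in the knockdown. The order of these relatives was therefore reversed in every knockdown library.

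Tbx15 and Tbx18 are shown because they have the longest shared coding run of any pair of members while 1 of them was lower and the other was not. Their coding sequences (GENCODE M21 transcripts) share a longest identical run of 23 bases, and a stretch of 90 bases inside the T-box around it was identical at 77 positions. Capitals mark the bases at which the pair differs; Tbx15 is read from coding base 499 to 588 and Tbx18 from 595 to 684.
Tbx15: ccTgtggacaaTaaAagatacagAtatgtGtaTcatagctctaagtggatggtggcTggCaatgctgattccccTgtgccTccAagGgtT
Tbx18: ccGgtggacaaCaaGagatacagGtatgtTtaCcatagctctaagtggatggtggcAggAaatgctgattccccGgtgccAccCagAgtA
None of the 21 pairs of members shared a run of 31 bases, so a 150 bp read from these coding parts points to a single member.

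Tbx3 (ENSMUSG00000018604, chromosome 5, 119670669 to 119684724, plus strand), a repressor that acts in limb, mammary gland and the cardiac conduction system, had control values of 2070.2, 1987 and 1906 and knockdown values of 513, 521 and 604. The groups were far apart and knockdown library 3 was the highest of its group. The mean fell from 1988 ± 82.2 to 546 ± 50.1 (SD, n = 3), with a log2 fold change of -1.87 ± 0.12 (SE). The antisense gene Tbx3os1 shares 697 bp with Tbx3. Its values were 31.6, 26.5 and 25.7 in control and 4.97, 5.86 and 36.9 in the knockdown, so that the first and second knockdown libraries were low and the third was above every control. Its log2 change of -1.32 ± 0.75 did not pass (limma adjusted p = 0.20), and without knockdown library 3 it was -2.17 ± 0.30 (limma adjusted p = 8.3e-05).

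Tbx2 (ENSMUSG00000000093, chromosome 11, 85832551 to 85841948, plus strand), a repressor known to restrain cell cycle inhibitors, was much scarcer than Tbx3. Its values were 117, 131 and 105 in control and 9.95, 12.5 and 5.59 in the knockdown, from 321 and 32 reads in all. Every knockdown library was low, the third lowest. The log2 fold change was -3.57 ± 0.34 (SE), and -3.28 ± 0.21 without knockdown library 3. The ratio of Tbx3 to Tbx2 per kb was 8.28 to 9.98 in control libraries and 28.2, 22.7 and 59.1 in knockdown libraries, so the scarcer of the pair was reduced by the larger factor. A stretch at the start of the T-box of both is shown to compare these repressors, with 74 of 90 bases identical (capitals differ; Tbx2 coding bases 287 to 376, Tbx3 281 to 370).
Tbx2: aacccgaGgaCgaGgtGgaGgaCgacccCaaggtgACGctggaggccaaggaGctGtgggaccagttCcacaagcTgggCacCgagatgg
Tbx3: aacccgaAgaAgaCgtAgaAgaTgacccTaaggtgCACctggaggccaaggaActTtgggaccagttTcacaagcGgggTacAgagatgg

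Tbx4 (ENSMUSG00000000094, chromosome 11, 85886422 to 85916097, plus strand), the hindlimb factor, starts 53.9 kb downstream of Tbx2 on the same strand. Control libraries gave 112, 90.9 and 105, and knockdown libraries 13.3, 7.53 and 3.35, from 285 and 28 reads. It was at the level of Tbx2 in both groups. Its log2 fold change was -3.67 ± 0.47 (SE), or -3.23 ± 0.26 without knockdown library 3, beside -3.57 ± 0.34 for Tbx2. The ratio of Tbx2 to Tbx4 per kb was 0.938 to 1.35 in control and 0.703 to 1.56 in the knockdown, overlapping ranges. A difference between these neighbours was not detectable at 32 and 28 knockdown reads.

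Tbx1 (ENSMUSG00000009097, chromosome 16, 18580979 to 18590671, minus strand), a regulator of head muscle and of the pharyngeal arches, differed least among the 5. Control values were 1611.5, 1783 and 1632, and knockdown values were 1268, 1164 and 1031. The groups did not overlap, and every knockdown library was modestly below the lowest control. The log2 fold change was -0.54 ± 0.13 (limma adjusted p = 0.015). The call was lost when any of the control libraries was left out, with log2 changes of -0.57, -0.496 and -0.56 and limma adjusted p of 0.058, 0.068 and 0.058 without control library 1, 2 and 3. Without knockdown library 3 the change was -0.46 ± 0.07 (limma adjusted p = 1.0e-04).

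Tbx6 (ENSMUSG00000030699, chromosome 7, 126781483 to 126785560, plus strand), the early mesoderm factor, was scarce, with 17 to 57 reads per library. Its values were 18.5, 25.3 and 34.2 in control and 47.3, 28.4 and 38.0 in the knockdown, from 73 and 125 reads. The groups overlapped, and the log2 difference of 0.54 ± 0.34 (SE) was not past the threshold.

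**Figure D2:**
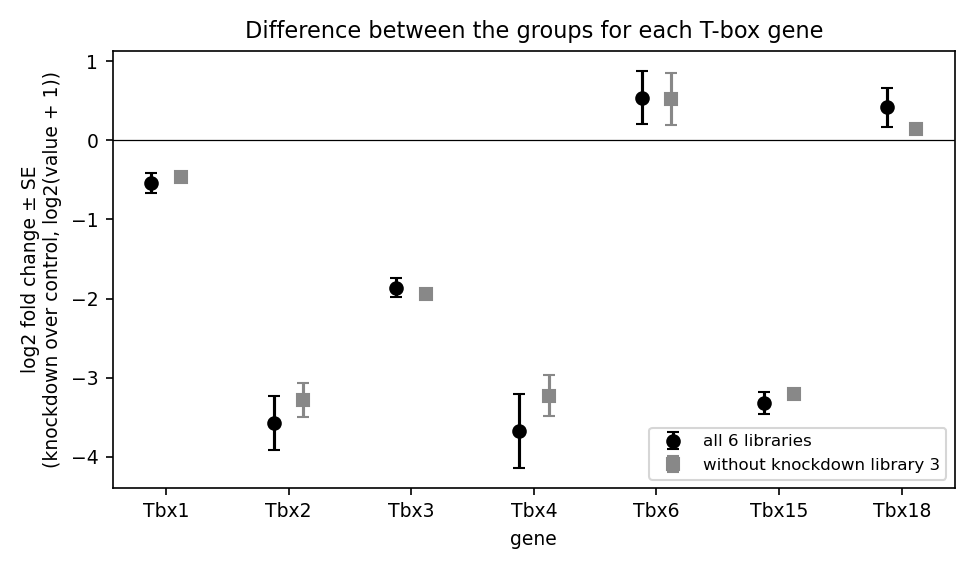
Log2 fold change (knockdown over control, on log2(value + 1)) with its SE for each T-box gene, with all 6 libraries and without knockdown library 3; where no bar shows, the SE is smaller than the symbol. Leaving out that library moves Tbx18 from 0.42 to 0.14 and leaves the 5 lower genes below 0.

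Levels of different genes were compared per kb of exonic length. In control cells Tbx15 stood at 2237 ± 16.0 normalised counts per kb (SD, n = 3), followed by Tbx1 at 476 ± 26.7. Tbx3 (300.1 ± 12.4) and Tbx18 (279.6 ± 13.5) came next, with overlapping values. Tbx2 (32.4 ± 3.71) and Tbx4 (30.2 ± 3.17) also overlapped, and Tbx6 was last at 14.4 ± 4.36. In the knockdown the order was Tbx18 (387 ± 138), Tbx1 (328 ± 33.8), Tbx15 (225 ± 31.1), Tbx3 (82.4 ± 7.56), Tbx6 (21.01 ± 5.22), Tbx2 (2.58 ± 0.970) and Tbx4 (2.37 ± 1.46). That order is of means, and Tbx18 and Tbx1 overlapped there, as did Tbx2 and Tbx4. Tbx18 was at 304, 311 and 547 in knockdown libraries 1, 2 and 3, and Tbx1 at 360, 331 and 293. Tbx1 was thus above Tbx18 in libraries 1 and 2, and library 3 alone put Tbx18 first. Summed over the 7 genes, the level per kb was 3345 to 3410.02 in control libraries and 988 to 1145 in knockdown libraries, 3.21-fold less by the means. Tbx15 made up 65.7 to 67.3% of this sum in control libraries and 16.6 to 24.9% in knockdown libraries. Tbx18 made up 7.91 to 8.65% in control and 29.9, 31.5 and 47.8% in knockdown libraries 1 to 3, and Tbx1 went from 13.7 to 14.9% to 25.6 to 35.5%. Tbx3 took 8.60 to 9.31% in control and 7.63 to 7.96% in the knockdown.

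**Figure D3:**
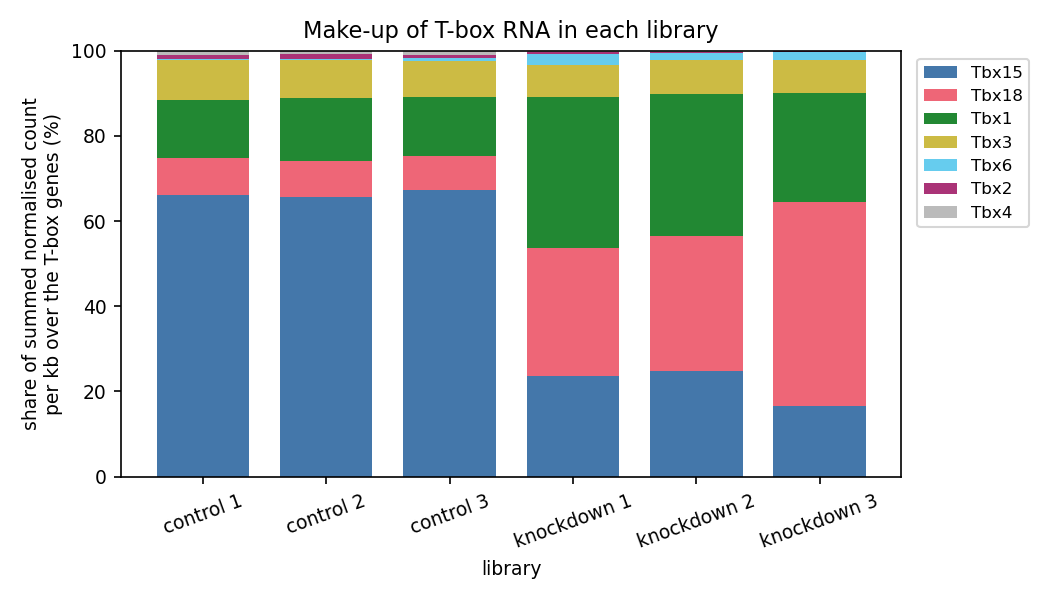
Share of the summed normalised count per kb over the 7 T-box genes (%) that each gene took in each library. Tbx15 takes 65.7 to 67.3% of each control bar and 16.6 to 24.9% of each knockdown bar, where Tbx18 and Tbx1 fill most of the rest.

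RefSeq start-site windows of 300 bases (GRCm38.p6, 250 bases before the start and 50 from it) were matched for 4 members, Tbx1, Tbx4, Tbx6 and Tbx18. Both strands were searched for the E-box CANNTG, which myogenic basic helix-loop-helix factors recognise, for its form CAGCTG, which is contained in it, and for the T-box core AGGTGT, which can overlap an E-box by its first 5 letters. Of 32817 windows in the table, 72.3% held CANNTG, 16.3% CAGCTG and 13.7% AGGTGT. The Tbx4 window, whose RefSeq start lies 10.3 kb inside the GENCODE gene, held 6 E-boxes, 1 of them CAGCTG. The Tbx18 window held 1 E-box, the Tbx1 window at its upstream start held 2 E-boxes and 1 AGGTGT, and the windows of Tbx6 and of the downstream start of Tbx1 held none of these motifs. GC content was 59.0% for Tbx4, 51.7% for Tbx18 and 58.3% and 69.0% for the upstream and downstream starts of Tbx1 and 57.7% for Tbx6, against a median of 52.7% over all windows. A match is a string of letters and not a bound site. The windows that hold any of these motifs are shown, with CANNTG and AGGTGT in capitals.
Tbx4, chr11:85896515-85896814, plus strand: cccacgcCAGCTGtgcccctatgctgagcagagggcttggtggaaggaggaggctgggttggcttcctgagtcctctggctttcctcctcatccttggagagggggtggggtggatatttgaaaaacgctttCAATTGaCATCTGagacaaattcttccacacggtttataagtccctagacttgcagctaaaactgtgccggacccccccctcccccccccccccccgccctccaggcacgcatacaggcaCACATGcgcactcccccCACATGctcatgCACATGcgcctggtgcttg
Tbx1, chr16:18590622-18590921, minus strand: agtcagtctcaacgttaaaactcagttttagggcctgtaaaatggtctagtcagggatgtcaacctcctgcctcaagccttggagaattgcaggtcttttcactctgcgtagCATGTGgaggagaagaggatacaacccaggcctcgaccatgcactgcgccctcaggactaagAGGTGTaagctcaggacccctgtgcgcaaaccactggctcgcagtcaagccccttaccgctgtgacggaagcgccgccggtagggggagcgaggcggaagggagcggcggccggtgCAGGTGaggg
Tbx18, chr9:87731211-87731510, minus strand: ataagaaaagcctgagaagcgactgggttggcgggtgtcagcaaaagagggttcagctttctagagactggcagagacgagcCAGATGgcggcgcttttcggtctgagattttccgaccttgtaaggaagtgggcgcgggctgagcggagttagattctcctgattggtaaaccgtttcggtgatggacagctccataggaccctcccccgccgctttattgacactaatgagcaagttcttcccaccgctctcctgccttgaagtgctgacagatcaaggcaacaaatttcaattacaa

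Genes around the members did not share a direction. Within 250 kb of a member's start, 48 other genes were tested, of which 13 (27.1%) were higher and 9 (18.8%) lower, against 21.7% and 23.5% of all genes tested. Without knockdown library 3 the counts were 21 and 15, where 38.6% and 39.9% of all genes were called higher and lower. Beside Tbx2 and Tbx4, Bcas3os1 had values of 2.53 to 10.5 in control and 14.1, 15.1 and 309 in the knockdown and was not called (limma adjusted p = 0.13, or 0.039 without knockdown library 3). Wars2, the mitochondrial tryptophanyl-tRNA synthetase next to Tbx15, had a log2 change of -0.49 ± 0.13 and was called lower. Around Tbx1, 7 of 13 genes were higher and 3 lower; its nearest neighbours Gp1bb and Sept5 were not called (log2 0.04 ± 0.24 and -0.49 ± 0.68). Sept5 turned to 0.34 ± 0.05 and was called higher without knockdown library 3 (limma adjusted p = 9.8e-05).

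Of the T-box family genes outside the naming rule, Mga, which joins a T-box to the MAX network, was measured at 2401 to 2915 in control and 2141 to 2285 in the knockdown. The groups did not overlap, but the log2 change of -0.29 ± 0.12 was not past the threshold (limma adjusted p = 0.098), and it was past it without knockdown library 3 (-0.295 ± 0.08, limma adjusted p = 0.0074). T, Eomes and Tbr1 had no row and were not analysed here.

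Of 19 partner proteins of T-box factors tested, 6 were higher and 7 lower, where 21.7% and 23.5% of all genes were. Without knockdown library 3 the counts were 9 and 8, where 38.6% and 39.9% of all genes were called, so nothing particular to the partners is read from them. The list had a median log2 change of 0.10 against 0.00 for all genes. Nkx2-5, a homeodomain factor that binds DNA together with Tbx5 in the heart, rose from 50.1 to 72.0 in control to 407 to 518 in the knockdown (log2 2.89 ± 0.21, limma adjusted p = 1.5e-04). Smad1, which transduces bone morphogenetic protein signals, rose by 1.24 ± 0.10 on the log2 scale. Pdlim7, a cytoskeletal protein that binds Tbx4 and Tbx5, fell from 11052 ± 417 to 2470 ± 59.8 (SD, n = 3), and Smarcd3, a muscle and heart subunit of chromatin remodellers, fell by 1.83 ± 0.10 on the log2 scale. Ripply1, a co-repressor that recruits Groucho to T-box proteins and was singled out after its values were seen, had 301 control reads and 1 knockdown read, which was in library 3. The ratio of pooled reads, divided by the ratio of the groups' summed size factors, was 359 (exact 95% counting interval 64.0 to 14235, counting error only); the ratio of mean normalised counts was 294.6.

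Of 12 reported T-box targets tested, 4 were higher and 6 lower, against 21.7% and 23.5% of all genes, with a median log2 change of -0.68. Without knockdown library 3 they were 5 and 6, against 38.6% and 39.9% of all genes, with a median of -0.47, and nothing particular to targets is read from these counts. Fgf10, a limb growth factor that Tbx4 and Tbx5 are known to activate, rose from 5.70 to 8.84 in control to 4168 to 5602 in the knockdown (log2 9.20 ± 0.23, limma adjusted p = 5.0e-06), while Tbx4 was lower. Ndrg1, a differentiation gene that Tbx2 is known to repress, rose by 3.56 ± 0.18 on the log2 scale. Cdkn1a, the cell cycle inhibitor p21 and a textbook target of repression by Tbx2 and Tbx3, went from 113313, 107641 and 120925 in control to 12084, 12530.2 and 20366 in the knockdown (log2 -2.97 ± 0.25). Dll1, a Notch ligand that Tbx6 activates in mesoderm, fell by 3.99 ± 0.25 on the log2 scale.

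Transcription factors of limb and connective tissue were mostly higher: 10 of 16 tested rose and 2 fell, against 21.7% and 23.5% of all genes, with a median log2 change of 1.27. Without knockdown library 3, 11 rose and 3 fell, against 38.6% and 39.9% of all genes. Tcf4, an E-protein gene that the list holds by its symbol, is not a particular connective tissue factor. It was not called with all libraries and was among those that fell without knockdown library 3 (log2 -0.59 ± 0.05). Prrx1, a marker of limb mesenchyme, rose from 3800.4 to 4029 in control to 26395 to 27240.3 in the knockdown, and Meis3, a partner of Hox proteins, rose by 2.47 ± 0.12 on the log2 scale. Msx2 and Osr2 fell, with log2 changes of -2.62 ± 0.31 and -1.55 ± 0.29. Among regulators of head muscle, the setting in which Tbx1 is best known, 7 of 11 rose and 2 fell (median 0.83, the same with Isl1 at its bound), and 8 rose and 2 fell without knockdown library 3, beside the same shares of all genes. Eya1, a transcriptional cofactor and phosphatase, rose by 3.25 ± 0.15 on the log2 scale. Isl1 had 0 control reads and 318 knockdown reads, at least 31.9-fold higher with 3 reads per library as floor, and at least 17.3-fold without knockdown library 3. Myod1 and Six4 fell, with log2 changes of -3.75 ± 0.45 and -0.61 ± 0.14. Some genes stand in more than 1 list, Isl1 and Myod1 among them.

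**Figure D4:**
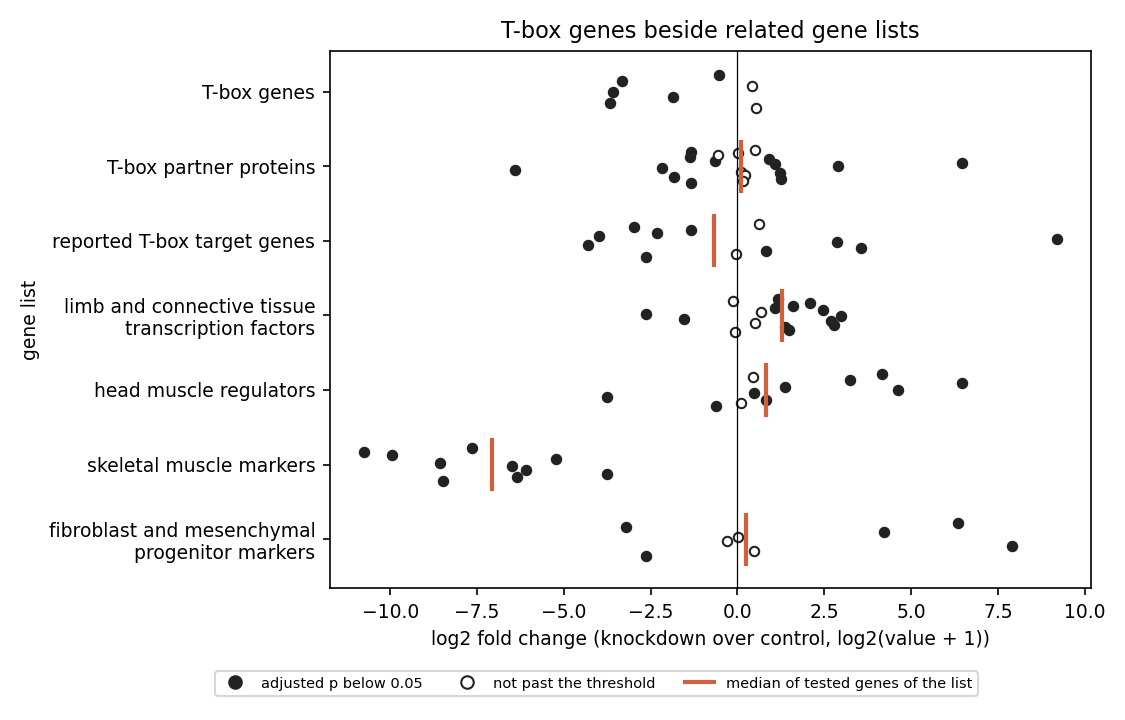
Log2 fold change (knockdown over control, on log2(value + 1)) of each tested gene in the T-box set and in 6 related lists; filled points passed an adjusted p below 0.05, open points did not, and bars are list medians. The limb and connective tissue factors lie mainly right of 0 (median 1.27) and the muscle markers left of it (median -7.07), with 5 T-box genes on the left; Isl1, with no control read, is drawn at its fitted value.

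Markers of cell types did not all move in 1 direction. Of all genes tested, 21.7% were called higher and 23.5% lower, or 38.6% and 39.9% without knockdown library 3. Of 10 skeletal muscle markers, 10 were lower, with summed values per 1000 of 1075 to 1093 in control and 8.04 to 9.18 in the knockdown. Of 8 fibroblast and mesenchymal progenitor markers tested, 3 rose (Ly6a, Cd34 and Dcn) and 2 fell (Pi16 and Col15a1), and the list median was 0.25 on the log2 scale. Summed values were 11209 to 11466 in control and 113061 to 190075 in the knockdown, where Dcn alone was at 68597 to 145067. The defining receptor Pdgfra was at 1336 to 1646 in control and at 2747, 2707 and 1157 in the knockdown, so that knockdown library 3 alone was low (log2 0.47 ± 0.36, limma adjusted p = 0.32). Without that library Pdgfra was called higher (log2 0.89 ± 0.08, limma adjusted p = 2.9e-06), and 4 markers of the list were higher and 3 lower. Nothing particular to this list is read from its counts. Cartilage and bone markers summed to 2601 to 2999 and 4500.2 to 9068 (2 of 3 tested higher, 3 without knockdown library 3), and glial and neural ones to 95202 to 108144 and 9853 to 11403 (2 of 3 lower), nearly all from Nes, which myoblasts also express. Endothelial markers summed to 6.32 to 6.65 and 18.2 to 90.5 (1 of 1 tested higher). Immune markers summed to 98.1 to 139 and 63.8 to 130 (1 of 3 lower, 2 without knockdown library 3). The upper knockdown ends of both came from knockdown library 3. Pecam1 was at 4.97, 2.51 and 68.2 in the knockdown libraries and Csf1r at 8.29, 9.20 and 72.7. None of the 5 adipocyte markers had a row. The part of these shifts in the T-box values was not tested.

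By profile over the 6 libraries (Euclidean distance of log2 values centred on the control mean, among 11830 or, for the low members, 11831 genes whose mean reached 100), the genes nearest to Tbx15 were Rassf3 and Ccdc134, at distances of 0.122 and 0.150. Rassf3 had control values of 6716, 7301 and 6873 and knockdown values of 797, 764 and 580.2. Nearest to Tbx3 were Clcn5 and Ran (0.147 and 0.178), to Tbx1 Phf7 and Safb (0.063 and 0.084), and to Tbx18 Cwc27 and Paip1 (0.077 and 0.118). The low genes had less close neighbours: Ccnd3 and Chac1 for Tbx2 (0.281 and 0.377), Kif18b and Jph2 for Tbx4 (0.378 and 0.481), and 4930430F08Rik and Lmln for Tbx6 (0.510 and 0.599). With 2 groups of 3 libraries, such likeness describes these libraries alone.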

How the data were processed

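The deposited table gave, per the file headers, 1 normalised signal per gene and library, and per the submitters' processing notes the tools were Trimmomatic 0.36, featureCounts (Subread 1.5.2) and DESeq2 on GRCm38; for the aligner, annotation release and strand setting the sources used here name nothing. Each deposited signal was a whole multiple of the value of 1 read (100% of values within 0.01 reads), so the authors had divided counts by a size factor per library, and whole reads were recovered. The authors' deposited log2 fold change, p-value and adjusted p-value were not used for results. Groups and replicate numbers came from the sample titles.

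limma 3.58.1 (R 4.3.3) with a mean-variance trend was fitted to log2(value + 1) of the 16245 genes that reached 10 in 3 or more libraries, without block or covariates, two-sided, with Benjamini-Hochberg adjustment over all genes tested at 0.05. Fold changes on that scale understate the change of low genes, and an exact permutation test of 3 against 3 libraries cannot go below 0.1. Means and folds of means are of the normalised counts. Positions and exonic lengths are from GENCODE M21 (GRCm38), and start-site windows from RefSeq (GRCm38.p6). The members and lists were chosen with earlier results of these data known. Named were all members, up to 2 genes per direction of each list by smallest adjusted p, genes near the members and nearest profiles; only some of these are printed, and other genes were chosen after their values were seen. Alternatives were other filters, pseudocounts and scalings, no trend, a block on the replicate number, each library left out, and recovered reads tested by edgeR 4.0.16 (quasi-likelihood) and DESeq2 1.42.0. The fit was checked on simulated data in which no library stood apart. That check therefore does not cover a library like knockdown library 3. Replicate pairs were compared by chi-square per gene on recovered reads (3.88 or more, where 1 is sampling noise), and no pair was counted as 1 sample.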

Additional observations from a re-analysis of the deposited data

How the results depend on the processing

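Tbx2, Tbx3, Tbx4 and Tbx15 kept their direction and their call in all 16 alternatives, with log2 changes of -3.80 to -3.12, -1.94 to -1.75, -4.08 to -3.11 and -3.39 to -3.20. Tbx1 kept its direction (-0.61 to -0.42) and lost its call in 4, which were the replicate block and each control library left out. Tbx18 (0.14 to 0.56) and Tbx6 (0.33 to 0.75, with no value at a minimum of 50) stayed positive and were not called in any alternative run. Without knockdown library 3, calls over all genes rose from 3519 to 6269 higher and from 3823 to 6485 lower, and without any other single library they were 2443 to 2930 higher and 2648 to 3356 lower. Upper-quartile scaling moved the median log2 change of all genes by 0.116 and edgeR by 0.109, and Tbx1 was at -0.42 under upper-quartile scaling. With the replicate number as a block, Tbx1 had the same log2 change of -0.54 (limma adjusted p = 0.051), 4 members were called lower, 0 members were called higher, and over all genes 3010 higher and 3301 lower calls were made. Whether the numbers pair the libraries was not settled. Deviations from the group means correlated at 0.017, 0.10 and 0.14 for replicates 1, 2 and 3, and at -0.15 to 0.12 between unlike numbers. Knockdown library 3 stood apart from its group and weighs on these deviations, so the correlations cannot decide it. For all lists of related genes and cell type markers together, each gene once, 31 genes were higher and 31 lower, and 28 and 31 with the block. Over all genes tested, 21.7% were called higher and 23.5% lower. The counts pool lists that differ in direction, among them the 10 muscle markers, all lower, so nothing is read from their balance. Depth limits Tbx2 and Tbx4, with 32 and 28 reads in the knockdown, and Tbx6, with 73 reads in control.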
